A study of Mus musculus with 9 samples.

Results

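CT26 tumours from saline-treated mice were compared with healthy colon across all genes, to give what separates the untreated tumour of this model from the normal tissue it is set against. The comparison uses 6 of the 9 RNA-seq libraries of the study, and 18228 of the 56398 features of its count table passed the filter on low counts and were tested. The sham group is 3 samples of healthy colon from BALB/c mice, and the sham procedure is not described in the labels. The model group is 3 tumours raised by injection of CT26 cells in BALB/c hosts, to which the line is syngeneic, with saline given once a day afterwards. Age, sex, the number of animals and the site of injection are not stated in the labels. Whether each sample is a different animal is not stated either, and p-values therefore reflect the variation among these libraries, part or all of which may be technical.

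CT26 is an undifferentiated colon carcinoma line that was induced chemically in a BALB/c mouse, and it is widely grown as a graft in immunocompetent mice because the host does not reject it as foreign tissue. Such a graft is 1 cell line with the host vessels, fibroblasts and leukocytes that enter it. Normal colon is a mucosa of absorptive, goblet, tuft and enteroendocrine cells over a crypt base of stem cells, with lymphoid tissue, a muscle coat and a nerve plexus beneath. A difference between these bulk samples therefore mixes a difference in the cells present with a difference in what each cell transcribes, and fewer cells of a type and less RNA per cell cannot be told apart.

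Total counts were 16078471 to 19932103 in the sham libraries and 16495522 to 23476056 in the model libraries. Sham 1 stood apart from the other colon samples. It differed from sham 2 and sham 3 by a chi-square of 88.64 and 104.7 per degree of freedom over genes, while sham 2 and sham 3 differed from each other by 2.88, and the model pairs lay between 12.32 and 15.7. Sham 1 was high in B cell transcripts (the B cell list summed to 2418, 319 and 195 CPM in sham 1, 2 and 3, where CPM is the read count scaled to the library total with TMM factors) and low in smooth muscle transcripts (179, 1542 and 1655 CPM). By that measure no model library stood apart, but model 1 held more epithelial RNA than the other tumours. Where leaving out a single library moved a count of list members or the median fold of a list by 1.5 times or more, the value without it is given.

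As a check of the labels, the defining genes of colonic epithelium were read in every library. Cdx2, the homeobox factor that sets intestinal identity, measured 329, 398 and 400 CPM in sham 1, 2 and 3 and 5.1, 0.167 and 0.14 CPM in model 1, 2 and 3. Krt8, the main keratin of simple epithelia, measured 4555, 7900 and 7980 CPM in the sham libraries and 74.3, 2.3 and 3.51 CPM in the model libraries. In model 2 and model 3 Cdx2 was near 0 and Krt8 was low but detected. Both genes were low in model 1 too, though higher than in the other tumours. The tissue labelled colon tumour thus carried little RNA of the colonic epithelial genes that define the sham tissue. The log2 fold change, model minus sham (log2FC below), of Cdx2 was -7.67 (SE 1.4, adjusted p 0.00274) and -11.15 without model 1, and that of Krt8 was -7.99 (SE 1.66, adjusted p 0.00482) and -11.16 without model 1.

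By edgeR's quasi-likelihood test with Benjamini-Hochberg adjustment at 0.05, 12697 of the 18228 tested features were called, which is 69.7%. Higher levels in tumour were called for 6700 features (36.8%) and lower levels for 5997 (32.9%). These shares are the background for every gene list that follows: a list in which like shares rise and fall does no more than the table as a whole. Of the calls, 52.8% were higher in tumour against 67.3% without scaling factors, a setting that raised the median log2FC of all tested features by 0.60. The fold changes were large. An absolute log2FC of at least 3, which is 8-fold, was reached by 2319 features that rose and 2337 that fell, and at least 5, which is 32-fold, by 1046 and 1306. The 3 sham values and the 3 model values did not overlap for 76.7% of tested features.

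Expression was also gained and lost outright. Among all features, 459 had no count in any sham library and at least 10 counts in each model library, and 91 of them were protein-coding. The reverse held for 169 features, 39 of them protein-coding. Without sham 1 the calls came to 15339, without model 1 to 11801, and without both to 14945, with 98.2% of the 12697 calls kept in direction in the last case.

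**Figure D1:**
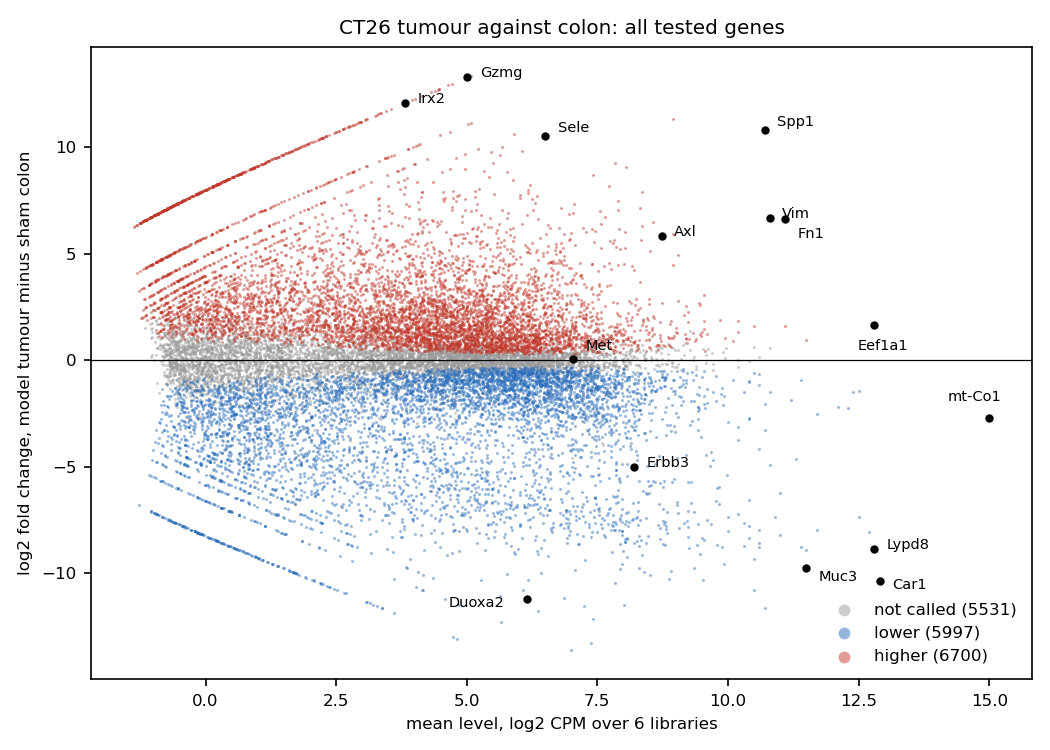
Each point is 1 of the 18228 tested genes: the mean level over the 6 libraries (x axis, log2 CPM) against the log2 fold change, model minus sham (y axis), in red where called higher, blue where called lower and grey where not called. Genes of the text are marked; slanted rows at the left edges are genes with no or few counts in 1 group, whose fitted fold change depends on the prior count and is no measure of size.

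The RNA that colon lost was concentrated in few genes. Shares were taken over all features, called or not. The 12 genes with the largest fall in CPM made 19.5% of all CPM lost, while the 12 with the largest rise made 9.44% of all CPM gained. Of the loss, 50% was reached by 189 genes, against 530 for the gain. mt-Co1, a mitochondrially encoded subunit of cytochrome c oxidase, lost the most and measured 59353, 56218 and 58534 CPM in the sham libraries and 9519, 9262 and 8103 CPM in the model libraries (log2FC -2.7, SE 0.162, adjusted p 3.65e-05). Car1, the cytosolic carbonic anhydrase of colonocytes (chromosome 3, 14766216 to 14808368, GRCm38), measured 9370, 17645 and 18108 CPM in the sham libraries and 31.2, 1.42 and 1.87 CPM in the model libraries. Its log2FC was -10.35 (SE 1.68, adjusted p 0.00163) and -13.12 without model 1. Muc3, a membrane mucin of the absorptive surface, measured 4625, 6499 and 6562 CPM in the sham libraries and 18.5, 0.754 and 0.983 CPM in the model libraries (log2FC -9.76, SE 1.64, adjusted p 0.00192; -12.69 without model 1). Lypd8, a secreted protein that keeps flagellated bacteria off the colonic epithelium, measured 13384, 15387 and 15432 CPM in the sham libraries and 91.7, 2.39 and 1.64 CPM in the model libraries. Its call (log2FC -8.85, SE 1.94, adjusted p 0.00599) was lost without sham 1, and its log2FC was -12.79 without model 1 and -8.25 without model 3. For each of these genes every sham library lay above every model library, and model 1 was the highest of the tumours.

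The largest gains were in genes of matrix, cytoskeleton and protein synthesis. Spp1, the secreted phosphoprotein osteopontin (ENSMUSG00000029304, chromosome 5, 104435118 to 104441050), measured 1.57, 1.97 and 2.03 CPM in the sham libraries and 4348, 2962 and 2752 CPM in the model libraries. Every tumour stood orders of magnitude above every colon sample (log2FC 10.81, SE 0.343, adjusted p 1.44e-05). On a scale per length, Spp1 reached 0.907 ± 0.0997 FPKM in colon and 2492 ± 536 FPKM in tumours (SD, n = 3 each), against 5365 ± 231 FPKM in tumours for Eef1a1, the elongation factor that brings tRNAs to the ribosome. Eef1a1 itself rose from 3837, 3300 and 3325 to 10816, 11008 and 10718 CPM (log2FC 1.64, SE 0.151, adjusted p 0.000155). Ctsl, a lysosomal cysteine protease, rose from 185, 149 and 147 to 1382, 1297 and 1300 CPM (log2FC 3.05, SE 0.166, adjusted p 2.86e-05). Flna, which crosslinks actin filaments, measured 65.8, 247 and 248 CPM in the sham libraries and 1289, 1326 and 1014 CPM in the model libraries, with sham 1 the lowest (log2FC 2.69, SE 0.509, adjusted p 0.00318). Actb, the cytoskeletal actin of nearly every cell, was among the largest losses and fell from 10211, 7170 and 7254 to 3232, 2983 and 2496 CPM (log2FC -1.5, SE 0.212, adjusted p 0.000921).

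Genes of the absorptive surface fell to a small remainder of their level in colon. Of 22 tested genes of the brush border, the carpet of actin-filled microvilli on the luminal face, 21 fell and 1 rose, with a median log2 fold change of -7.35. The median was -9.83 without model 1. Tmigd1, an adhesion molecule of that membrane, measured 462, 447 and 456 CPM in the sham libraries and 0.651, 0.126 and 0.14 CPM in the model libraries (log2FC -10.45, SE 0.642, adjusted p 4.01e-05; -11.63 without model 1). Anpep, an aminopeptidase found on brush borders and on myeloid and stromal cells, was the member that rose, from 3.28, 4.3 and 4.18 to 27.7, 27.8 and 24.2 CPM (log2FC 2.76, SE 0.195, adjusted p 5.94e-05). Of 27 genes of ion and water transport, 22 fell and 5 rose (median -4.95; -6.23 without model 1, and 3 rose without sham 3). The water channels Aqp4 and Aqp1 went opposite ways. Aqp4 measured 160, 200 and 208 CPM in the sham libraries and 0.867, 0 and 0 CPM in the model libraries (log2FC -9.2, SE 1.07, adjusted p 0.000407; -14.68 without model 1), and Aqp1, which is also a channel of capillary endothelium and red cells, 7.16, 7.58 and 8.93 CPM in the sham libraries and 545, 490 and 493 CPM in the model libraries (log2FC 6.01, SE 0.175, adjusted p 1.41e-05). Slc26a3, the chloride-bicarbonate exchanger of colonocytes, measured 2564, 3454 and 3583 CPM in the sham libraries and 24.2, 0.461 and 0.374 CPM in the model libraries. Its call (log2FC -8.58, SE 1.93, adjusted p 0.00674) was lost without sham 1, and its log2FC was -12.84 without model 1 and -7.99 without model 2 and -7.98 without model 3.

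Among 14 carbonic anhydrases, which interconvert carbon dioxide and bicarbonate, 7 fell, 3 rose and 4 were not called. Without model 3, 2 rose. The rise was clearest in Car5b, a mitochondrial member (ENSMUSG00000031373, chromosome X, 163976822 to 164027997), at 1.19, 1.17 and 0.824 CPM in the sham libraries and 115, 110 and 97.2 CPM in the model libraries (log2FC 6.66, SE 0.206, adjusted p 1.41e-05). Car12, a membrane-bound member of the colonic surface, measured 572, 716 and 743 CPM in the sham libraries and 29.5, 21.3 and 13.8 CPM in the model libraries (log2FC -4.97, SE 0.337, adjusted p 5.24e-05). The family's summed level was 11496, 20287 and 20843 CPM in the sham libraries and 260, 215 and 179 CPM in the model libraries, so what the members that rose added was small beside what fell.

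Tight junction and desmosomal genes mostly fell. Of 22 claudins and partners, which seal the space between cells, 16 fell and 5 rose (median -5.68; -8.18 without model 1). Cldn23, a claudin of the upper crypt and surface, measured 104, 123 and 119 CPM in the sham libraries and 0.687, 0 and 0.0468 CPM in the model libraries (log2FC -8.73, SE 0.869, adjusted p 0.000218; -11.91 without model 1). Cldn6, a claudin of embryonic epithelia, rose: it had 1 count in the sham libraries together and measured 33.2, 43 and 23.2 CPM in the model libraries (adjusted p 3.71e-05). Tjp1, the scaffold ZO-1 that many cell types make, was not called, at 187, 279 and 281 CPM in the sham libraries and 222, 252 and 171 CPM in the model libraries. Without sham 1 it was called lower (log2FC -0.39). Of 11 desmosomal genes, 10 fell and none rose (median -6.25; -7.81 without model 1), and 8 fell without sham 1.

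Connexins, the subunits of gap junctions, went both ways. Gjb2, a connexin of epithelia, measured 17.3, 16.5 and 17.2 CPM in the sham libraries and 1.01, 0 and 0.0468 CPM in the model libraries. Gja1, the connexin 43 of fibroblasts and muscle, rose from 16.7, 13.6 and 12.1 to 410, 238 and 322 CPM (log2FC 4.51, SE 0.268, adjusted p 3.65e-05), and Gjc1, a connexin of vascular muscle, from 3.06, 2.04 and 1.9 to 38.2, 36.6 and 39.7 CPM (log2FC 4.03, SE 0.237, adjusted p 3.58e-05). The log2FC of Gjb2 was -5.48 (adjusted p 0.00381; -9.15 without model 1). Cadherins and other adhesion genes listed with them, catenins included, went both ways, with 6 of 14 higher and 8 lower. Cdh17, the intestinal cadherin, measured 2330, 2244 and 2267 CPM in the sham libraries and 27.5, 11.2 and 6.69 CPM in the model libraries (log2FC -7.23, SE 0.635, adjusted p 0.000133; -7.96 without model 1). Cdh13, a cadherin held by a lipid anchor and found on vessels and stroma, measured 1.72, 2.26 and 1.9 CPM in the sham libraries and 79.3, 71.4 and 80.8 CPM in the model libraries (log2FC 5.3, SE 0.177, adjusted p 1.44e-05).

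**Figure D2:**
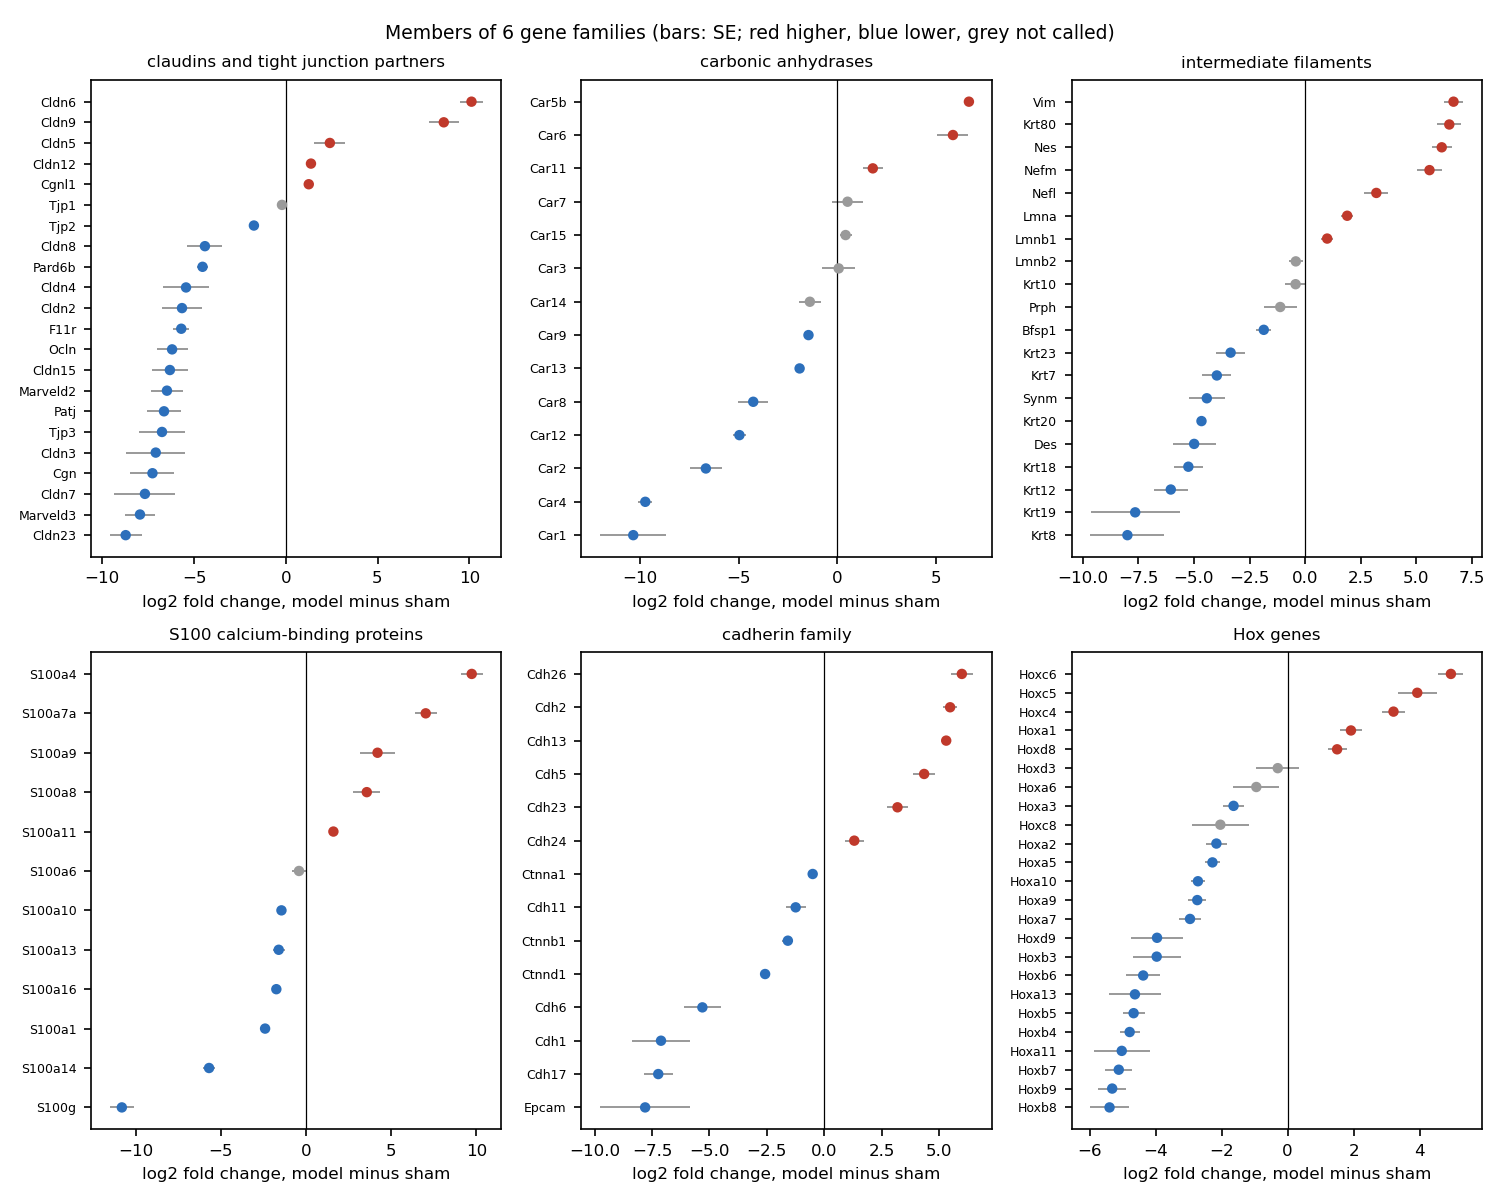
Log2 fold change, model minus sham (x axis), with its SE as a bar, for every tested member of 6 families; red is called higher, blue called lower and grey not called. In each family members lie on both sides of 0; S100a4 had no count in the sham libraries, so its fitted value depends on the prior count.

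Most mucus and defence genes that coat the colon fell. Of 34 genes, 24 fell, 5 rose and 5 were not called (median -5.05). Those not called were Muc2, Muc6, Fcgbp, Reg4 and Ang4. Without model 1 the lower count was 28 and the median -9.98. Their summed level was 36175, 39205 and 39350 CPM in sham 1, 2 and 3 and 549, 128 and 74.7 CPM in model 1, 2 and 3. Duoxa2, which brings the hydrogen peroxide-making oxidase Duox2 to the cell surface, measured 120, 153 and 155 CPM in the sham libraries and 0.108, 0 and 0.0468 CPM in the model libraries (log2FC -11.19, SE 0.463, adjusted p 1.78e-05; -12.22 without model 1). Reg3b, an antibacterial lectin, measured 211, 244 and 243 CPM in the sham libraries and 0.253, 0 and 0 CPM in the model libraries (log2FC -11.17, SE 0.755, adjusted p 5.21e-05; -14.98 without model 1). The secreted defence proteins Lcn2, which binds bacterial siderophores, and Slpi, an antiprotease, rose. Lcn2 measured 1.34, 0.802 and 0.697 CPM in the sham libraries and 32.6, 44.8 and 6.36 CPM in the model libraries (log2FC 4.88, SE 0.8, adjusted p 0.00172) and Slpi 1.86, 0.948 and 1.52 CPM in the sham libraries and 10.4, 4.73 and 5.57 CPM in the model libraries (log2FC 2.25, SE 0.436, adjusted p 0.00351). Both are also products of neutrophils and macrophages, and the source of their RNA was not tested.

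The rarer epithelial types were less uniform. Of 11 enteroendocrine genes, which mark the hormone cells of the gut, 9 fell and 2 rose. The pair that rose were Pax6, a homeobox factor of endocrine and neural cells, from 0.746, 0.729 and 0.57 to 23.9, 24.7 and 22.6 CPM (log2FC 5.11, SE 0.221, adjusted p 1.87e-05), and Cpe, a carboxypeptidase that trims prohormones, at 16.2, 38.3 and 37.1 CPM in the sham libraries and 129, 112 and 117 CPM in the model libraries (log2FC 1.97, SE 0.329, adjusted p 0.00188). Tuft cells are chemosensory cells that make eicosanoids, and 5 of their 13 tested genes fell while 5 rose. Without sham 2 or sham 3, 3 rose. Trpm5, their taste cation channel, measured 3.95, 5.91 and 5.07 CPM in the sham libraries and 0.614, 0.251 and 0.281 CPM in the model libraries (log2FC -3.66, SE 0.443, adjusted p 0.000479). Ptgs1, the constitutive cyclooxygenase, measured 11.5, 18.9 and 20.8 CPM in the sham libraries and 288, 282 and 247 CPM in the model libraries (log2FC 3.99, SE 0.26, adjusted p 4.61e-05), and Alox5ap, which presents arachidonate to lipoxygenase, 1.19, 0.802 and 0.507 CPM in the sham libraries and 10.7, 12.1 and 14.3 CPM in the model libraries (log2FC 3.89, SE 0.362, adjusted p 0.000166). The members that rose are also made by leukocytes or stroma.

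Of 41 regulators that set or hold epithelial identity, 39 fell and 1 rose, with a median of -5.87. Without sham 1, 2 rose, and the median was -7.32 without model 1. Isx, a homeobox repressor of intestinal vitamin A uptake, measured 121, 187 and 186 CPM in the sham libraries and 0.795, 0 and 0 CPM in the model libraries (log2FC -9.12, SE 1.04, adjusted p 0.000382; -14.49 without model 1). Hnf4a, the nuclear receptor that drives enterocyte genes, measured 1183, 1816 and 1849 CPM in the sham libraries and 22.9, 0.167 and 0.328 CPM in the model libraries. Its call (log2FC -7.68, SE 1.98, adjusted p 0.012) was lost without sham 1 and with no filter on low counts, and its log2FC was -12.62 without model 1 and -7.08 without model 2 and -7.09 without model 3. The member that rose was Gata4, an endodermal GATA factor that normal colon makes little of, at 0.447, 1.02 and 0.634 CPM in the sham libraries and 7.63, 6.45 and 6.22 CPM in the model libraries (log2FC 3.26, SE 0.365, adjusted p 0.000346). The crypt stem and progenitor list was mixed, with 7 of 19 higher, 8 lower and a median of 0.44. Without scaling 11 were higher. Rnf43, a ubiquitin ligase that removes Wnt receptors, measured 20.7, 30.8 and 32.3 CPM in the sham libraries and 0.651, 0.67 and 0.14 CPM in the model libraries (log2FC -5.8, SE 0.525, adjusted p 0.00015), and Cd44, a hyaluronan receptor of crypt cells, leukocytes and many tumours, 75.3, 31.6 and 30.7 CPM in the sham libraries and 601, 620 and 540 CPM in the model libraries (log2FC 3.68, SE 0.405, adjusted p 0.000328). Sox9, a factor of the crypt base, was not called, at 30.3, 23.2 and 19.5 CPM in the sham libraries and 43.1, 28.3 and 29.1 CPM in the model libraries. Without sham 1 it was called higher (log2FC 0.64), as it was without scaling (log2FC 1.06).

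How much of the colonic level remained differed between tumours and between classes of gene. Each member with at least 10 CPM in colon was set as a percent of its sham mean. The median member of the mucus list stood at 1.69% in model 1, 0.0178% in model 2 and 0.0451% in model 3, and that of the brush border list at 1.42%, 0.0657% and 0.0963%. Some mucus members kept far more than the median in model 1. Muc2 stood at 19%, 0.161% and 0.103% in model 1, 2 and 3, and Fcgbp at 20.2%, 0.0349% and 0.026%. For the epithelial regulators the medians were 2.92%, 0.395% and 0.517%. Model 1 was the highest tumour for 22 of 25, 17 of 20 and 31 of 34 of these members. It was also the highest for 21 of 28, 61 of 72 and 18 of 24 members of the fatty acid oxidation, respiratory chain and tricarboxylic acid cycle lists, where the medians of the tumours lay much closer: 16.1%, 13.7% and 13.8% for fatty acid oxidation, 24.9%, 18.4% and 22.8% for nuclear-encoded respiratory chain subunits, and 40.6%, 38.5% and 34% for the tricarboxylic acid cycle. The part of this epithelial RNA in other results of model 1 was not tested. Markers of tissues that can surround a graft, those of skin and skeletal muscle, were mostly too low to test: 4 of 18 passed the filter, and their list summed to 15.2, 8.97 and 7.6 CPM in the sham libraries and 7.99, 12.1 and 8.99 CPM in the model libraries.

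**Figure D3:**
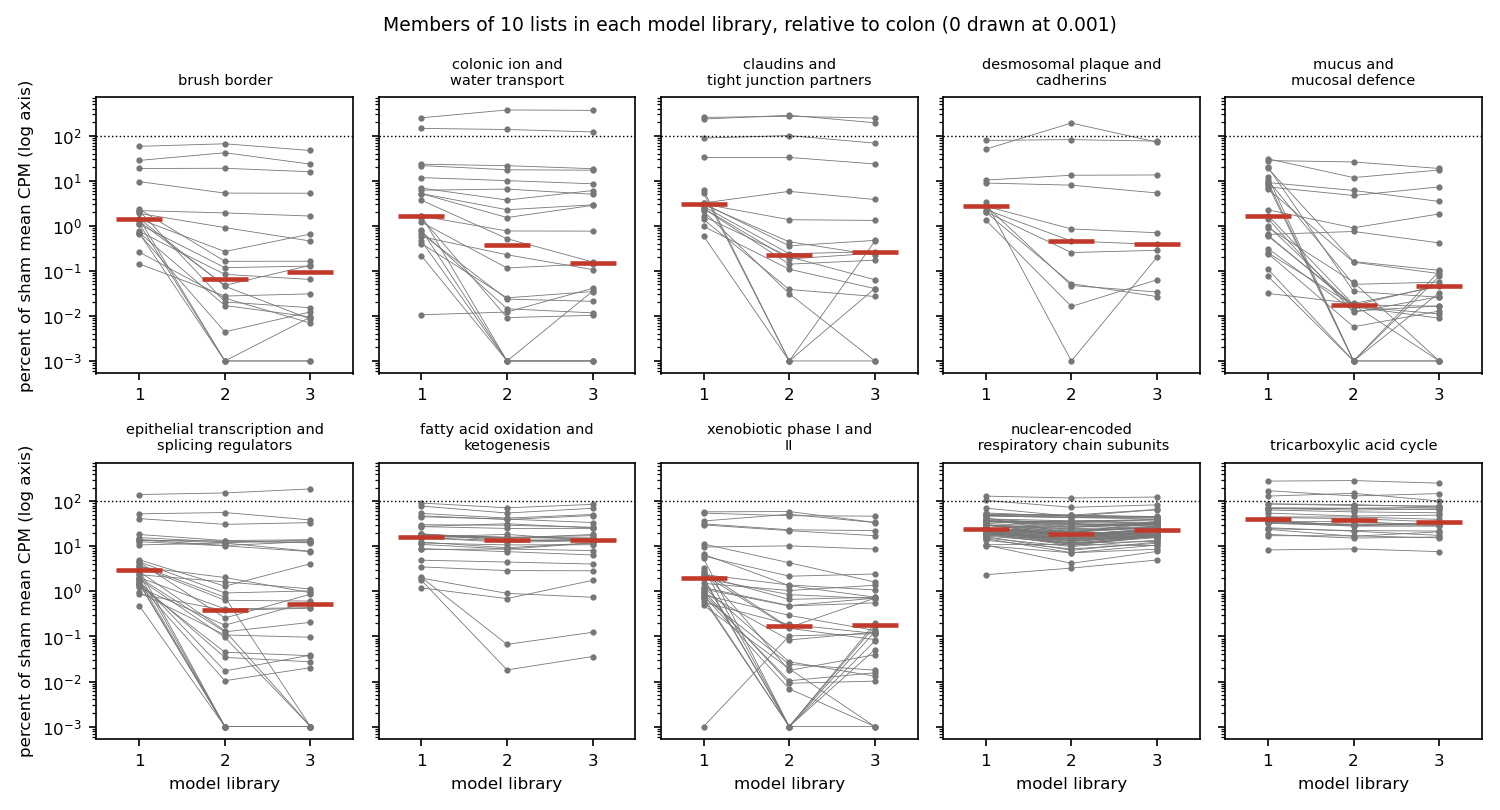
Level of each list member in model libraries 1, 2 and 3 (x axis) as a percent of its mean in the 3 sham libraries (y axis, log scale; a level of 0 is drawn at 0.001), for members with at least 10 CPM in colon; thin lines join a gene and red bars are medians. Epithelial and xenobiotic lists sit higher in model 1 than in models 2 and 3, while fatty acid oxidation, respiratory chain and tricarboxylic acid cycle members lie at like levels in all 3.

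Regulators of the mesenchymal state rose as a group. Of 21, 16 rose, 3 fell and 2 were not called (median 3.42). Prrx1, a homeobox factor of limb and craniofacial mesenchyme, measured 1.19, 0.51 and 0.507 CPM in the sham libraries and 485, 449 and 435 CPM in the model libraries (log2FC 9.27, SE 0.392, adjusted p 1.85e-05). The members that fell included inhibitors of basic helix-loop-helix factors that answer to BMP signals, Id1, at 122, 152 and 153 CPM in the sham libraries and 10.6, 9.04 and 10.2 CPM in the model libraries (log2FC -3.84, SE 0.159, adjusted p 1.78e-05), and Id3, at 48.8, 84.9 and 88.8 CPM in the sham libraries and 3.54, 2.43 and 2.67 CPM in the model libraries (log2FC -4.68, SE 0.316, adjusted p 5.2e-05). Intermediate filaments, the tissue-specific rope of the cytoskeleton, changed type. Simple epithelial keratins fell, as Krt18 did from 190, 253 and 267 to 12.1, 2.26 and 4.21 CPM (log2FC -5.25, SE 0.663, adjusted p 0.000574; -6.16 without model 1). Nes, the nestin of neural progenitors and activated stroma, measured 0.597, 1.68 and 2.41 CPM in the sham libraries and 122, 105 and 109 CPM in the model libraries (log2FC 6.14, SE 0.444, adjusted p 6.6e-05). Nefm, a neurofilament subunit, measured 0.149, 0.729 and 1.01 CPM in the sham libraries and 33.3, 22.5 and 37.8 CPM in the model libraries (log2FC 5.59, SE 0.555, adjusted p 0.000217).

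Basement membrane genes, which make the sheet under epithelium and around vessels, rose in tumour. Of 21 tested, 15 rose and 3 fell, with a median of 3.6 (2 fell without each library but sham 1), and their summed level was 325, 510 and 524 CPM in colon and 3780, 3257 and 2818 CPM in tumours. Lama5, the long alpha chain of laminin-511 (ENSMUSG00000015647, chromosome 2, 180176373 to 180225859), measured 5.82, 9.33 and 9.31 CPM in the sham libraries and 704, 692 and 538 CPM in the model libraries. Even the lowest tumour, model 3, lay far above every colon sample (log2FC 6.3, SE 0.284, adjusted p 1.99e-05). Its partners Lamb1 and Lamc1 moved alike: Lamb1 measured 12.2, 11 and 10.5 CPM in the sham libraries and 545, 411 and 389 CPM in the model libraries (log2FC 5.32, SE 0.207, adjusted p 1.62e-05) and Lamc1 12.8, 14.3 and 12.9 CPM in the sham libraries and 578, 532 and 411 CPM in the model libraries (log2FC 5.25, SE 0.199, adjusted p 1.57e-05). Hspg2, the heparan sulfate proteoglycan perlecan, measured 2.31, 11 and 12.9 CPM in the sham libraries and 496, 431 and 388 CPM in the model libraries (log2FC 5.64, SE 0.656, adjusted p 0.000408). Lamb3, a chain of the epithelial laminin-332, fell instead, at 84, 186 and 192 CPM in the sham libraries and 4.34, 0.251 and 0.0936 CPM in the model libraries (log2FC -6.57, SE 1.25, adjusted p 0.00327; -9.68 without model 1).

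Interstitial matrix followed the same direction. Of 43 glycoproteins and crosslinking enzymes, 31 rose and 4 fell (median 2.81; 6 fell without sham 1 and model 1). Fbln2, a fibulin that bridges elastic fibres and basement membranes, measured 1.79, 1.31 and 1.58 CPM in the sham libraries and 229, 251 and 183 CPM in the model libraries (log2FC 7.14, SE 0.223, adjusted p 1.42e-05). Loxl4, a lysyl oxidase that crosslinks collagen, measured 0.0746, 0.292 and 0.57 CPM in the sham libraries and 52.8, 89.1 and 43.8 CPM in the model libraries (log2FC 7.56, SE 0.576, adjusted p 7.81e-05; 8.28 without sham 3). Of 29 collagen chains other than type IV, 16 rose, 7 fell and 6 were not called. Col8a1, a short-chain collagen of vessel walls, measured 0.597, 0.802 and 0.887 CPM in the sham libraries and 181, 160 and 141 CPM in the model libraries (log2FC 7.7, SE 0.221, adjusted p 1.41e-05), and Col1a2, a chain of the main fibrillar collagen, 45.8, 25.7 and 28 CPM in the sham libraries and 1211, 964 and 904 CPM in the model libraries (log2FC 4.95, SE 0.307, adjusted p 4.12e-05).

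Enzymes that cut matrix and their inhibitors rose together: 21 of 29 were higher and 2 lower (median 3.12; 4 lower without sham 1 and 3 without sham 3, model 1, model 2 or model 3). Mmp12, the macrophage elastase, measured 0.224, 0.0729 and 0.253 CPM in the sham libraries and 24.3, 34.9 and 40.1 CPM in the model libraries (log2FC 7.43, SE 0.418, adjusted p 3.21e-05). Timp1, a tissue inhibitor of these enzymes, measured 0.746, 0.146 and 0.127 CPM in the sham libraries and 125, 118 and 107 CPM in the model libraries (log2FC 8.44, SE 0.516, adjusted p 3.96e-05; 9.68 without sham 1). Serpinb2, an inhibitor of plasminogen activators, had no count in the sham libraries and measured 14, 7.87 and 4.45 CPM in the model libraries, at least 41.6-fold higher when 3 counts per library are taken as the floor. The members that fell were Mmp15, a membrane-bound collagenase made by epithelia (log2FC -4.85, SE 0.516, adjusted p 0.000284; -5.58 without model 1), and Ctss, a cathepsin of antigen-presenting cells (log2FC -1.39, SE 0.165, adjusted p 0.000428).

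Integrins are cell receptors for matrix and for other cells. Of 25 integrin chains, 8 rose, 7 fell and 10 were not called. Without sham 1 the counts were 12 and 9, without model 3 they were 8 and 4, and without scaling 10 and 3. The shares that rose and fell lay below those of all tested features. Itga5, the fibronectin receptor chain, measured 2.46, 10.4 and 11.2 CPM in the sham libraries and 215, 187 and 173 CPM in the model libraries (log2FC 4.57, SE 0.558, adjusted p 0.000496), and Itgam, the myeloid chain CD11b, 2.24, 2.11 and 1.84 CPM in the sham libraries and 55.4, 51.3 and 54.7 CPM in the model libraries (log2FC 4.7, SE 0.167, adjusted p 1.44e-05). Itgb6, an epithelial chain that activates latent TGF-beta, measured 146, 132 and 130 CPM in the sham libraries and 2.57, 0.377 and 0.328 CPM in the model libraries (log2FC -6.91, SE 0.804, adjusted p 0.000409; -8.53 without model 1). Itgav, its usual partner, was not called, at 238, 252 and 258 CPM in the sham libraries and 226, 224 and 197 CPM in the model libraries. Without sham 1 it was called lower (log2FC -0.26) and without scaling it was called higher (log2FC 0.40), so its direction is open. Of 12 S100 calcium-binding proteins, 5 rose and 6 fell. S100g, the intestinal calbindin, measured 232, 91.4 and 80.5 CPM in the sham libraries and 0.0723, 0.0419 and 0.0936 CPM in the model libraries, and S100a4, a marker of motile and stromal cells, had no count in sham and 6.18, 5.11 and 5.19 CPM in the model libraries, at least 26.1-fold higher. The log2FC of S100g was -10.81 (SE 0.711, adjusted p 4.79e-05; -10.18 without sham 1).

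Genes that record position along the body fell or switched. Hox genes lie in clusters and mark segments of the body, with posterior members in the colon. Of 24 tested, 16 fell, 5 rose and 3 were not called (median -2.73). In the Hoxb cluster every tested member of the list fell, and Hoxb9 measured 60.2, 77.7 and 76.2 CPM in the sham libraries and 2.89, 1.42 and 0.983 CPM in the model libraries (log2FC -5.32, SE 0.426, adjusted p 9.56e-05). Of the Hoxc cluster, Hoxc6 and Hoxc4 rose: Hoxc6 measured 1.27, 0.875 and 0.634 CPM in the sham libraries and 27.5, 20.6 and 37.9 CPM in the model libraries (log2FC 4.95, SE 0.378, adjusted p 7.81e-05) and Hoxc4 0.373, 0.51 and 0.253 CPM in the sham libraries and 3.87, 3.35 and 3.37 CPM in the model libraries (log2FC 3.21, SE 0.361, adjusted p 0.000345). The levels in tumour did not overlap those in colon for Hoxb9, Hoxc6 or Hoxc4, which the rule for naming called genes required.

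Other homeobox and patterning factors rose more often than they fell, 16 against 9 of 27. The Iroquois factors Irx1, Irx2 and Irx5, which pattern limb, heart and neural tissue, were not detected in colon. Irx2 (ENSMUSG00000001504, chromosome 13, 72628820 to 72634198) had no count in any sham library and measured 28.4, 26.4 and 28.7 CPM in the model libraries, at least 132-fold higher. For Irx1 the bound was 77.6-fold and for Irx5 51.7-fold. Sall1, a zinc-finger factor of kidney and microglia, had no count in tumours and fell at least 9.98-fold.

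Germline and imprinted genes, which are normally silent or expressed from 1 parental copy, also differed. Rhox5, an X-linked homeobox gene of testis, ovary and placenta, measured 0.224, 0.583 and 0.824 CPM in the sham libraries and 157, 130 and 140 CPM in the model libraries (log2FC 7.99, SE 0.371, adjusted p 2.15e-05). Dppa4, a chromatin factor of pluripotent cells, had no count in colon and measured 7.19, 4.65 and 8.1 CPM in tumours, at least 31.5-fold higher. In all, 6 of 7 tested germline genes rose and 1, Tdrd1, fell to 1 count in the tumours together (adjusted p 6.56e-05). Of 20 imprinted genes, 11 fell and 4 rose (9 and 6 without scaling). Snrpn, a splicing protein gene of the Prader-Willi region, measured 26.8, 26.5 and 26 CPM in the sham libraries and 0.542, 0.0837 and 0.14 CPM in the model libraries (log2FC -6.6, SE 0.579, adjusted p 0.000133; -7.78 without model 1). Mest, a growth-linked hydrolase of embryonic mesoderm, measured 0.746, 0.875 and 0.697 CPM in the sham libraries and 7.41, 4.77 and 4.91 CPM in the model libraries (log2FC 2.88, SE 0.329, adjusted p 0.000368). The Y-linked genes Eif2s3y, Uty, Kdm5d and Ddx3y all fell. Eif2s3y, a translation initiation subunit, measured 174, 124 and 129 CPM in the sham libraries and 11.5, 5.57 and 6.83 CPM in the model libraries (log2FC -4.16, SE 0.33, adjusted p 9.15e-05), and every tumour lay far below every colon sample.

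**Figure D4:**
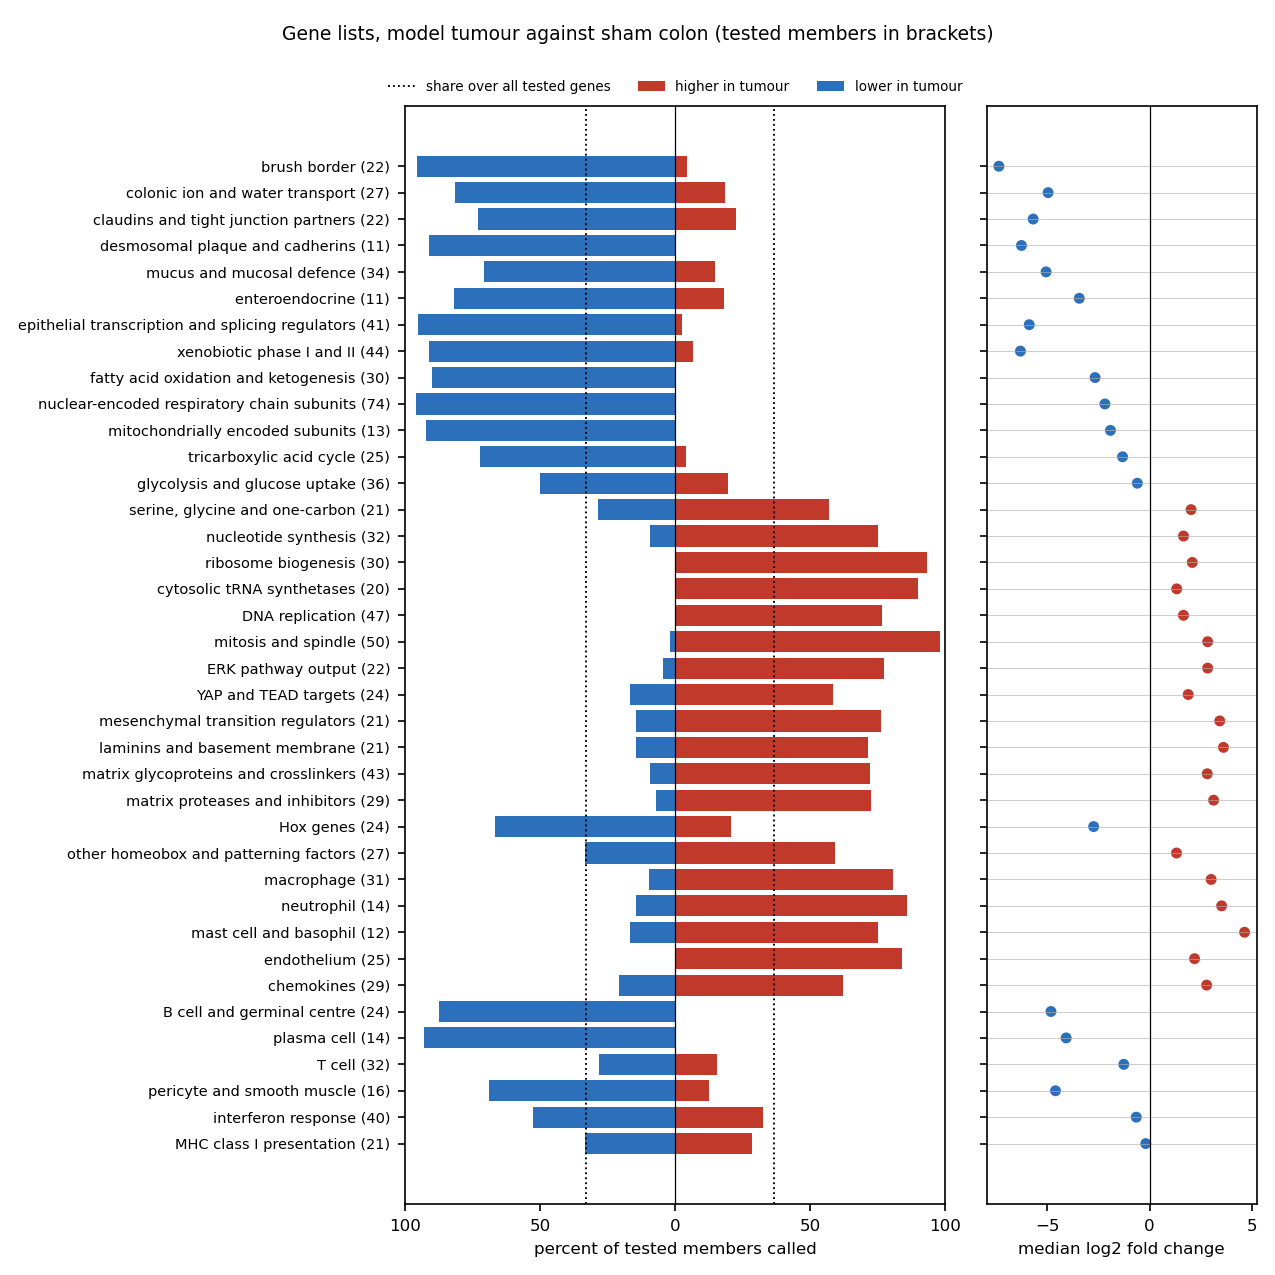
Left, the percent of tested members called lower (blue, drawn leftwards) and higher (red) in tumour for 38 gene lists, with the number of tested members in brackets; dotted lines are the shares over all 18228 tested features, 32.9% lower and 36.8% higher. Right, the median log2 fold change of the tested members of each list (x axis).

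Receptors of growth factors differed between the tissues. The EGF receptor family binds EGF-like ligands and neuregulins and signals through Ras and ERK. Its 3 abundant members in colon fell. Egfr measured 47.7, 45.1 and 44.7 CPM in the sham libraries and 5.28, 3.22 and 2.48 CPM in the model libraries (log2FC -3.64, SE 0.305, adjusted p 0.000113), Erbb2 145, 365 and 379 CPM in the sham libraries and 29.9, 24.8 and 25.1 CPM in the model libraries (log2FC -3.48, SE 0.392, adjusted p 0.00036) and Erbb3, the neuregulin receptor that pairs with Erbb2, 398, 629 and 684 CPM in the sham libraries and 27.6, 10.8 and 13.8 CPM in the model libraries (log2FC -5.03, SE 0.46, adjusted p 0.000156). Every tumour lay below every colon sample for all 3, which the rule for naming called genes required, and Erbb2 was lowest among colon samples in sham 1. The ligands went both ways. Areg, an EGF receptor ligand of regenerating epithelium, measured 47.1, 40.3 and 39.4 CPM in the sham libraries and 3.54, 3.98 and 2.48 CPM in the model libraries (log2FC -3.66, SE 0.233, adjusted p 4.33e-05), while Ereg, a close relative, rose from 27.1, 21.5 and 25.2 to 196, 181 and 171 CPM (log2FC 2.89, SE 0.145, adjusted p 2.47e-05). Nrg1, the neuregulin that binds Erbb3, rose from 5.07, 3.5 and 3.49 to 43.9, 64.7 and 43.1 CPM (log2FC 3.65, SE 0.268, adjusted p 6.9e-05). Over the family, 8 of 15 rose and 6 fell.

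FGF receptors went opposite ways by tissue of use. Fgfr2, whose epithelial form answers to stromal FGFs, measured 256, 387 and 422 CPM in the sham libraries and 9.32, 0.167 and 0.281 CPM in the model libraries (log2FC -6.74, SE 1.52, adjusted p 0.00682; -10.56 without model 1), and Fgfr1, the main receptor of mesenchymal cells, 2.54, 2.62 and 4.25 CPM in the sham libraries and 210, 162 and 128 CPM in the model libraries (log2FC 5.72, SE 0.319, adjusted p 3.15e-05). The order of the pair therefore reversed: on the scale per length, Fgfr2 stood at 27.6 ± 6.15 FPKM and Fgfr1 at 0.256 ± 0.0734 FPKM in colon, and at 0.373 ± 0.598 and 20.6 ± 4.16 FPKM in tumours (SD, n = 3 each). Axl, a receptor tyrosine kinase that binds Gas6, rose from 19.4, 12.6 and 12.7 to 878, 862 and 759 CPM (log2FC 5.81, SE 0.256, adjusted p 1.95e-05), while its relative Mertk fell (log2FC -2.27, SE 0.166, adjusted p 6.88e-05). Pdgfrb, the PDGF receptor of pericytes and fibroblasts, rose from 4.62, 5.47 and 4.56 to 106, 73.3 and 79.1 CPM (log2FC 4.14, SE 0.209, adjusted p 2.56e-05). Csf1, the growth factor of macrophages, rose from 6.93, 3.72 and 3.36 to 162, 161 and 145 CPM (log2FC 5.06, SE 0.317, adjusted p 4.18e-05). Met, the HGF receptor, measured 139, 121 and 126 CPM in the sham libraries and 136, 153 and 116 CPM in the model libraries and was not called: its groups overlapped (without scaling it was called higher, log2FC 0.67). Mst1r, the related receptor RON of epithelia, fell (log2FC -6.46, SE 0.904, adjusted p 0.000885; -7.98 without model 1).

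The insulin-like growth factor receptor Igf1r measured 25.2, 19.1 and 16.3 CPM in the sham libraries and 206, 203 and 166 CPM in the model libraries (log2FC 3.25, SE 0.208, adjusted p 4.44e-05), and its adaptor Irs1 0, 0.219 and 0.317 CPM in the sham libraries and 28.2, 24.2 and 16.8 CPM in the model libraries (log2FC 6.92, SE 0.626, adjusted p 0.000149; 7.55 without sham 3). The binding proteins, which hold the growth factors in the matrix, split: Igfbp6 rose (log2FC 7.59, SE 0.209, adjusted p 1.41e-05) and Igfbp5 fell (log2FC -3.9, SE 0.679, adjusted p 0.00224). Of 18 genes of the VEGF and angiopoietin system, 13 rose and 1 fell (median 2.26; none fell without model 1). Vegfa, the main angiogenic ligand, measured 116, 134 and 147 CPM in the sham libraries and 151, 152 and 154 CPM in the model libraries and was not called. It was called higher without scaling (log2FC 0.82). Pgf, a ligand of the receptor Flt1, rose (log2FC 4.71, SE 0.369, adjusted p 8.29e-05), as did Vegfd (log2FC 4.97, SE 0.389, adjusted p 8.62e-05). Esm1, an endothelial proteoglycan of growing vessel tips, measured 1.49, 0.365 and 0.57 CPM in the sham libraries and 340, 365 and 312 CPM in the model libraries (log2FC 8.71, SE 0.51, adjusted p 3.52e-05; 9.46 without sham 1).

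Downstream of these receptors the core kinases and the target genes were read apart. Of 24 core genes, 7 rose, 11 fell and 6 were not called, with a median of -0.55 that was 0.06 without scaling. Map2k1, the kinase MEK1, fell from 390, 517 and 520 to 94.8, 107 and 83.3 CPM (log2FC -2.32, SE 0.184, adjusted p 9.04e-05), and Mras, a Ras relative that opens the Raf phosphatase complex, rose (log2FC 3.76, SE 0.228, adjusted p 3.71e-05). Of 22 genes that ERK signalling is known to raise, 17 rose and 1 fell (median 2.83; 3 fell without sham 1), and their summed level was 439, 401 and 410 CPM in colon and 2868, 2684 and 2476 CPM in tumours. Etv4, an ETS factor, measured 1.79, 0.656 and 0.824 CPM in the sham libraries and 94.3, 72.9 and 81 CPM in the model libraries (log2FC 6.25, SE 0.383, adjusted p 3.99e-05). Fosl1, a Fos relative, measured 1.72, 2.77 and 1.84 CPM in the sham libraries and 96.3, 105 and 93.1 CPM in the model libraries (log2FC 5.54, SE 0.229, adjusted p 1.78e-05). Ccnd1, the cyclin D1 that starts the cell cycle, measured 15.7, 27.4 and 33.1 CPM in the sham libraries and 578, 551 and 509 CPM in the model libraries (log2FC 4.42, SE 0.311, adjusted p 6.04e-05). The member that fell was Spry1, a feedback inhibitor of receptor kinases (log2FC -2.52, SE 0.418, adjusted p 0.00183).

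**Figure D5:**
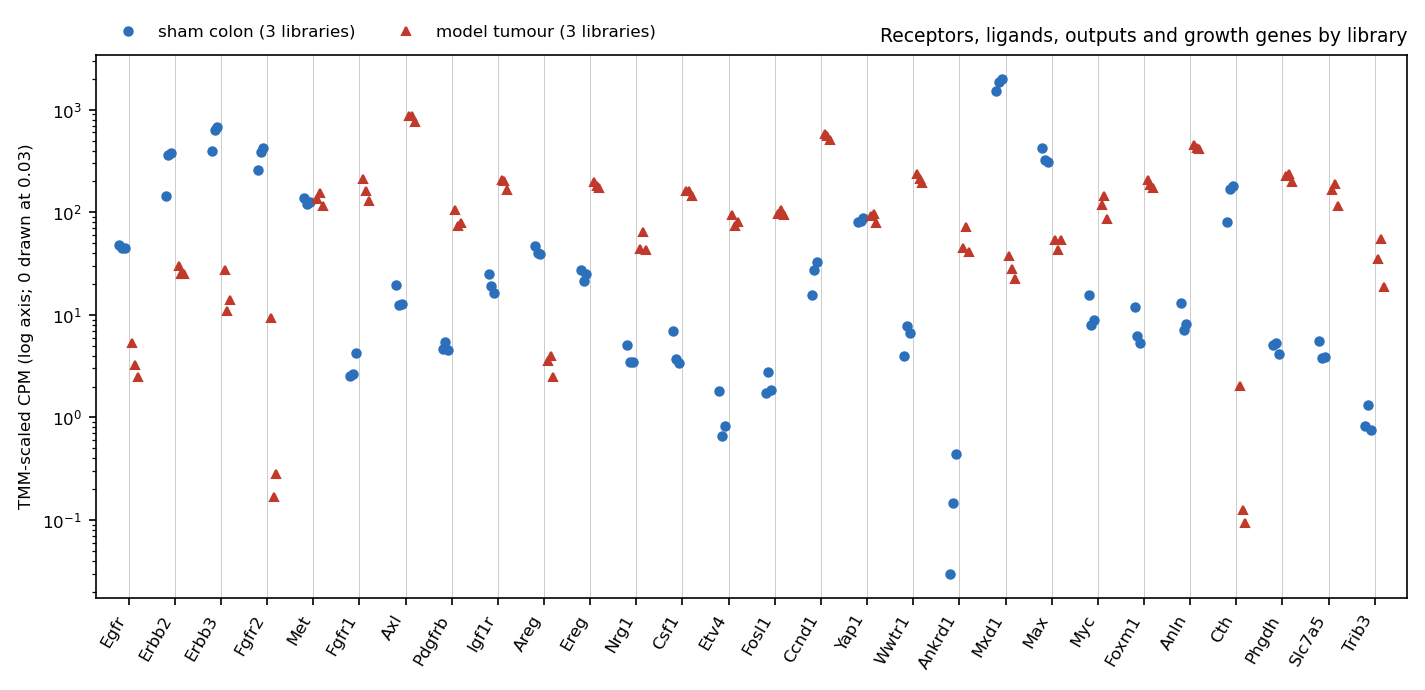
CPM after TMM scaling (y axis, log scale; a level of 0 is drawn at 0.03) of 28 receptors, ligands, target genes, growth regulators and metabolic genes in each of the 3 sham (blue circles) and 3 model libraries (red triangles). The groups overlap for Met and Yap1 and lie apart for the other genes drawn.

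Wnt signalling maintains the colonic crypt, and its parts moved both ways: 15 of 32 rose and 12 fell. The counts were 10 and 9 without sham 2, 13 and 7 without sham 3, 11 and 8 without model 2, 12 and 7 without model 3, and 17 and 7 without scaling. Among ligands, Wnt10a measured 0.447, 0.0729 and 0.0634 CPM in the sham libraries and 42.5, 46.5 and 49.8 CPM in the model libraries (log2FC 7.89, SE 0.524, adjusted p 4.95e-05; 9.28 without sham 1). Lgr4, the receptor through which R-spondins protect Wnt receptors, fell from 255, 264 and 278 to 18.5, 12 and 10.7 CPM (log2FC -4.27, SE 0.25, adjusted p 3.55e-05). Apcdd1, a membrane inhibitor, rose (log2FC 7.64, SE 0.541, adjusted p 6.19e-05), as did the secreted inhibitor Dkk2 (log2FC 6.89, SE 0.324, adjusted p 2.15e-05). Hedgehog signalling in the gut runs from epithelium to stroma. Ihh, its ligand there, measured 81.5, 167 and 163 CPM in the sham libraries and 2.42, 0.293 and 0 CPM in the model libraries (log2FC -7.17, SE 1.14, adjusted p 0.00154; -9.71 without model 1), Smo, its signal transducer, 3.36, 5.54 and 5.89 CPM in the sham libraries and 113, 96.8 and 103 CPM in the model libraries (log2FC 4.4, SE 0.247, adjusted p 3.18e-05), and Gli3, a transcription factor at its end, 1.42, 2.33 and 3.42 CPM in the sham libraries and 77.6, 59.9 and 51.1 CPM in the model libraries (log2FC 4.7, SE 0.362, adjusted p 8.1e-05). The receptor Notch2 rose, at 23.9, 11.4 and 11.3 CPM in the sham libraries and 190, 199 and 148 CPM in the model libraries (log2FC 3.53, SE 0.349, adjusted p 0.000213), while Hes1, the repressor that Notch raises in gut, measured 66.5, 41 and 39.1 CPM in the sham libraries and 6.4, 5.9 and 4.31 CPM in the model libraries (log2FC -3.14, SE 0.29, adjusted p 0.000163).

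In the TGF-beta superfamily 21 of 47 genes rose and 15 fell. Those that rose included binders that store or block the ligands outside the cell. Ltbp1, which stores TGF-beta in the matrix, measured 11.3, 7.58 and 7.03 CPM in the sham libraries and 445, 448 and 365 CPM in the model libraries (log2FC 5.6, SE 0.259, adjusted p 2.14e-05). Grem1, a BMP antagonist of the tissue beneath the crypt base, measured 8.05, 2.84 and 3.3 CPM in the sham libraries and 271, 176 and 289 CPM in the model libraries (log2FC 5.7, SE 0.497, adjusted p 0.00013; 6.3 without sham 1), and Fst, which binds activin, 0.82, 0.802 and 1.2 CPM in the sham libraries and 77.6, 71.3 and 69.2 CPM in the model libraries (log2FC 6.25, SE 0.217, adjusted p 1.44e-05). Bmp8a, a BMP ligand, measured 10.6, 9.04 and 8.74 CPM in the sham libraries and had no count in any model library, at least 75.8-fold lower. Axon guidance families, whose members also steer vessels and tumour cells, divided evenly, with 17 of 51 higher and 16 lower. Within them Slit2, a secreted repellent, measured 1.19, 1.09 and 0.697 CPM in the sham libraries and 535, 534 and 517 CPM in the model libraries (log2FC 9.05, SE 0.264, adjusted p 1.41e-05), and Sema3a, a secreted semaphorin, 1.86, 2.92 and 3.42 CPM in the sham libraries and 620, 561 and 766 CPM in the model libraries (log2FC 7.88, SE 0.325, adjusted p 1.78e-05). On the scale per length Slit2 reached 0.0317 ± 0.00901 FPKM in colon and 25.6 ± 0.793 FPKM in tumours (SD, n = 3 each).

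YAP and TAZ are coactivators that bind TEAD factors when cells spread on stiff matrix. Yap1 itself measured 80.9, 81.5 and 88.5 CPM in the sham libraries and 92.1, 96 and 78.4 CPM in the model libraries and was not called. It was called higher without scaling (log2FC 0.69). Wwtr1, which encodes TAZ, rose from 3.95, 7.8 and 6.72 to 234, 210 and 194 CPM (log2FC 5.11, SE 0.288, adjusted p 3.21e-05), and Tead4 from 0.373, 0 and 0.507 to 26.3, 26.8 and 22.2 CPM (log2FC 6.36, SE 0.65, adjusted p 0.000242; 5.72 without sham 2 and 6.98 without sham 3). The list of their targets also holds Yap1, Wwtr1, Tead1, Tead2, Tead3 and Tead4 themselves. Of its 24 members, 14 rose and 4 fell (median 1.88; 6 fell without sham 1 and model 1). Wwtr1, Tead1, Tead2 and Tead4 are among those that rose, so the targets alone make a smaller count. Ankrd1, a nuclear protein of stretched muscle, measured 0, 0.146 and 0.444 CPM in the sham libraries and 45.3, 72.2 and 40.6 CPM in the model libraries (log2FC 7.95, SE 0.669, adjusted p 0.000114; 9.3 without sham 3), and Amotl2, which binds YAP and was chosen after its values were seen, 10.7, 8.89 and 11.2 CPM in the sham libraries and 44.7, 48.5 and 35.6 CPM in the model libraries (log2FC 2.07, SE 0.188, adjusted p 0.000149).

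Promoters of the members of this list that rose, targets and factors together, were read for the letters that TEAD factors are known to bind. RefSeq promoter windows on GRCm38.p6, from 250 bases before to 50 after the start of a gene, were searched on both strands for 8 motifs, none of which contains another. GGAATG, the TEAD motif, lay in 8 of 11 windows (72.7%) of the 10 list members that rose and had a window, against 14.7% of all 32851 windows of 27025 genes. These members may include the factors as well as their targets. Printed 5′ to 3′ on the strand of the gene, the 250 bases before the start, with each match in capitals, are as follows for Ankrd1 (chr19:36119845-36120094, minus strand) and Amotl2 (chr9:102717554-102717803, plus strand).
Ankrd1: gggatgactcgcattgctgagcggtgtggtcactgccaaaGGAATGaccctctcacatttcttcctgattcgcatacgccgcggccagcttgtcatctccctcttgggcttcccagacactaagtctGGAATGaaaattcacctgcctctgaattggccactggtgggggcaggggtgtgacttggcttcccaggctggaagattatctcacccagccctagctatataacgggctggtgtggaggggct
Amotl2: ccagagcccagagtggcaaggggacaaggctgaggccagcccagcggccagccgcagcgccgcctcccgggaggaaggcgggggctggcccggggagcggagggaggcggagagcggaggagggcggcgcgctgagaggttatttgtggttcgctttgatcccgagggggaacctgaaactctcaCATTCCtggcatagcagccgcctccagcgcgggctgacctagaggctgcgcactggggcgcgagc
The matches begin 210 and 123 bases before the start in Ankrd1 and 65 bases before it in Amotl2, where the letters are read as the reverse complement CATTCC. A match is a description of the sequence, and binding was not measured. The log2FC of Ankrd1, whose sham levels were near 0, was 7.95, and 9.3 without sham 3.

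Cell division genes rose almost without exception. Of 50 genes of mitosis and the spindle, 49 rose and 1 fell (median 2.83; 3.47 without sham 1), and their summed level was 1543, 709 and 675 CPM in sham 1, 2 and 3 and 5946, 5586 and 5827 CPM in model 1, 2 and 3. Sham 1 was the highest of the colon samples, and all 3 tumours lay above it. Anln, an actin-binding protein of the cleavage furrow, measured 13, 7.07 and 8.11 CPM in the sham libraries and 452, 425 and 418 CPM in the model libraries (log2FC 5.52, SE 0.285, adjusted p 2.68e-05). Foxm1, the factor that drives the mitotic genes, measured 11.9, 6.2 and 5.32 CPM in the sham libraries and 208, 185 and 172 CPM in the model libraries (log2FC 4.6, SE 0.345, adjusted p 7.46e-05). The member that fell was Cdc25a, a phosphatase that activates CDKs, at 96.9, 93.9 and 102 CPM in the sham libraries and 30.5, 28.1 and 28.4 CPM in the model libraries (log2FC -1.75, SE 0.115, adjusted p 4.6e-05). Of 47 DNA replication genes 36 rose and none fell (median 1.65), and the median was 2.40 without sham 1. Pola1, the catalytic subunit of the primase-polymerase, measured 23.6, 4.74 and 4.12 CPM in the sham libraries and 93, 82.4 and 85.5 CPM in the model libraries, with sham 1 far above sham 2 and sham 3 (log2FC 3.01, SE 0.693, adjusted p 0.00746; 4.29 without sham 1).

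Mitotic and S-phase genes are known to carry different promoter elements, and these were counted in the members that rose. The CHR element TTTGAA lay in 33 of 44 windows (75%) of mitosis genes and in 14.6% of 41 windows of DNA replication genes, against 17.9% of all windows. The CCAAT box, CCAAT, lay in 77.3% and 56.1%, against 37.4%. The E2F motif GCGGGAA lay in 34.1% of the replication windows and in none of the mitosis windows, against 4.6% of all. Shown are Cdc20 (chr4:118437344-118437593, minus strand), an activator of the anaphase ubiquitin ligase, Top2a (chr11:99024190-99024439, minus strand), the topoisomerase that untangles chromosomes, and Pola1 (chrX:93632156-93632405, minus strand), with CHR and CCAAT matches in capitals in the first pair and E2F matches in Pola1.
Cdc20: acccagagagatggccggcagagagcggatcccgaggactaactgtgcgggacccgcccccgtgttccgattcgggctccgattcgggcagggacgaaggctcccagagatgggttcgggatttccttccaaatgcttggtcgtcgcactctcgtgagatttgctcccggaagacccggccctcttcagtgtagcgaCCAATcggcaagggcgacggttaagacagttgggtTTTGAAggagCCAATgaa
Top2a: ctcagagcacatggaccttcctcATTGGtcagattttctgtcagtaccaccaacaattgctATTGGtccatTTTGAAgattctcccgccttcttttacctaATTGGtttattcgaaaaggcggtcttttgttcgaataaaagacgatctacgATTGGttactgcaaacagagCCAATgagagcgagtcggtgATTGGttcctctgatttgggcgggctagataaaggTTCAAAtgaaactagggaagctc
Pola1: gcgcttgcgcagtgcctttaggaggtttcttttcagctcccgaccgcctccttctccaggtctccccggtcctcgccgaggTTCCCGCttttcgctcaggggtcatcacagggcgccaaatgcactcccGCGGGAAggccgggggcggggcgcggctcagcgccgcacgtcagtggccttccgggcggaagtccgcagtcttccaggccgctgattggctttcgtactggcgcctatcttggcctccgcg
In Cdc20 a CHR lies 18 bases before the start between CCAAT boxes at 53 and 8 bases. Top2a holds 6 CCAAT boxes and 2 CHR matches, most of them on the other strand as ATTGG and TTCAAA. Cdc20 measured 17.8, 10.3 and 8.36 CPM in the sham libraries and 111, 105 and 89.8 CPM in the model libraries (log2FC 3.07, SE 0.306, adjusted p 0.000219) and Top2a 134, 42.7 and 44.5 CPM in the sham libraries and 549, 465 and 578 CPM in the model libraries (log2FC 2.85, SE 0.492, adjusted p 0.00216; 3.60 without sham 1), both chosen after their values were seen. The log2 fold change of Pola1 was 3.01, and 4.29 without sham 1.

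Regulators of entry into the cycle moved in both directions. Of 29, 17 rose and 7 fell. Cdk6, a partner of cyclin D, rose (log2FC 3.5, SE 0.169, adjusted p 2.26e-05). Cdkn2b, an inhibitor of that kinase which lies next to Cdkn2a on chromosome 4, measured 41.2, 38.1 and 39.8 CPM in the sham libraries and 1.23, 0.377 and 0.374 CPM in the model libraries (log2FC -5.86, SE 0.495, adjusted p 0.000115; -6.66 without model 1). Rb1, the retinoblastoma protein that restrains E2F, measured 162, 151 and 166 CPM in the sham libraries and 45.5, 50 and 44.5 CPM in the model libraries (log2FC -1.78, SE 0.118, adjusted p 4.77e-05). In the MYC network, Myc rose from 15.7, 8.02 and 9 to 119, 143 and 86.2 CPM (log2FC 3.41, SE 0.335, adjusted p 0.000206), whereas its partner Max fell from 428, 322 and 311 to 53.3, 42.5 and 53.1 CPM (log2FC -2.83, SE 0.193, adjusted p 5.34e-05). Mxd1, which competes with Myc for Max and is high in differentiated epithelium, fell from 1534, 1880 and 1977 to 37.8, 28 and 22.5 CPM (log2FC -5.93, SE 0.283, adjusted p 2.26e-05). On the scale per length, Mxd1 measured 205 ± 21.2 FPKM in colon and 5.09 ± 1.11 FPKM in tumours and Myc 3.27 ± 1.36 FPKM in colon and 52.4 ± 11.7 FPKM in tumours (SD, n = 3 each), so that Mxd1 was the higher in colon and Myc the higher in tumours.

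Protein synthesis genes rose at the level of ribosome assembly and tRNA charging. Of 30 ribosome biogenesis genes 28 rose and none fell (median 2.08), and of 20 cytosolic tRNA synthetases 18 rose and none fell (median 1.32; 1 fell without sham 1). Vars, the synthetase for valine, measured 14.7, 19.8 and 22.6 CPM in the sham libraries and 257, 228 and 218 CPM in the model libraries (log2FC 3.62, SE 0.203, adjusted p 3.16e-05), and Polr1a, the large subunit of RNA polymerase I, 15.1, 13 and 13.4 CPM in the sham libraries and 142, 140 and 117 CPM in the model libraries (log2FC 3.27, SE 0.147, adjusted p 1.95e-05). Ncl, a nucleolar protein of early ribosome assembly, measured 298, 151 and 150 CPM in the sham libraries and 1228, 1279 and 1153 CPM in the model libraries (log2FC 2.61, SE 0.311, adjusted p 0.000453). The ribosomal proteins themselves were less clear. Of 79, 28 rose, 5 fell and 46 were not called, while without sham 1, which held the highest levels of many of them among colon samples, 61 rose and 5 fell. Those that fell were 3 without model 2 and 2 without model 3. These genes have many processed copies in the genome, so the counts of single members are uncertain.

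Energy genes of the mitochondrion fell. Of 74 nuclear-encoded subunits of the respiratory chain, 71 fell, none rose and 3 were not called (median -2.18); 1 rose without sham 1, and without scaling factors 66 fell and 1 rose. Cox7a1, a subunit of cytochrome c oxidase, measured 17, 27 and 20.7 CPM in the sham libraries and 0.506, 0.712 and 1.08 CPM in the model libraries (log2FC -4.82, SE 0.367, adjusted p 7.78e-05), and Uqcrfs1, the iron-sulfur subunit of complex III, 357, 410 and 429 CPM in the sham libraries and 40.9, 28.8 and 34.6 CPM in the model libraries (log2FC -3.52, SE 0.188, adjusted p 2.83e-05). Of the 13 mitochondrially encoded subunits, 12 fell and 1 was not called (median -1.91). Single values of this set are uncertain, because mt-Co2, mt-Co3, mt-Atp6, mt-Atp8, mt-Nd3 and mt-Nd4l were far lower per length than mt-Co1 in every library, and near copies of mitochondrial genes lie in the nuclear genome. Of 25 genes of the tricarboxylic acid cycle and its entry, 18 fell and 1 rose. Without scaling 15 fell and 5 rose. The member that rose was Acly, which makes cytosolic acetyl-CoA from citrate (log2FC 1.46, SE 0.12, adjusted p 9.98e-05). Me2, the mitochondrial malic enzyme, fell from 655, 775 and 750 to 60.6, 64.1 and 55.7 CPM (log2FC -3.59, SE 0.155, adjusted p 1.87e-05).

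Genes of fatty acid use fell, while the balance in lipid synthesis depended on scaling. Of 30 genes of fatty acid oxidation and ketone synthesis, 27 fell and none rose (median -2.66). Bdh1, which interconverts ketone bodies, measured 109, 221 and 235 CPM in the sham libraries and 3.87, 0.126 and 0.234 CPM in the model libraries (log2FC -7.01, SE 1.22, adjusted p 0.00222; -9.96 without model 1). Of 31 genes of fatty acid and triglyceride synthesis, 16 fell and 8 rose. Without scaling 15 fell and 13 rose. Dgat2, which completes triglycerides, fell (log2FC -6.45, SE 0.489, adjusted p 7.71e-05), while Fads1 and Acsl4, which make and activate polyunsaturated fatty acids, rose (log2FC 2.81, SE 0.218, adjusted p 8.3e-05 for Fads1, and log2FC 2.87, SE 0.325, adjusted p 0.000365 for Acsl4). In cholesterol synthesis and uptake 17 of 30 genes fell, 5 rose and 8 were not called. Without scaling 11 fell and 8 rose.

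Glycolytic genes moved both ways. Of 36 genes, 18 fell and 7 rose, and the summed level was 7490, 10639 and 10564 CPM in the sham libraries and 7577, 8955 and 7493 CPM in the model libraries, which overlap. The median was -0.6, and 0.01 without scaling. Among members chosen after their values were seen, Slc2a1, Hk2, Aldoa and Ldha fell and Pgk1, Pgam1 and Eno1 rose. Hkdc1, a hexokinase of gut epithelium, fell (log2FC -8.87, SE 1.09, adjusted p 0.000516; -11.24 without model 1), and Pklr, the liver and gut pyruvate kinase, fell (log2FC -7.15, SE 1.08, adjusted p 0.00121; -11.02 without model 1). Eno2, the neuronal enolase, rose from 3.5, 3.28 and 2.09 to 99.8, 118 and 116 CPM (log2FC 5.23, SE 0.239, adjusted p 2.01e-05), and Hk3, a leukocyte hexokinase, rose (log2FC 5.03, SE 0.331, adjusted p 4.79e-05). Pkm, the pyruvate kinase of most other cells, measured 1077, 1687 and 1635 CPM in the sham libraries and 1560, 1753 and 1506 CPM in the model libraries and was not called. It was called higher without scaling (log2FC 0.75). The PEP carboxykinases went opposite ways: cytosolic Pck1 measured 30.1, 95.8 and 98.5 CPM in the sham libraries and 2.35, 0.126 and 0.281 CPM in the model libraries (log2FC -6.28, SE 1.07, adjusted p 0.00199; -8.46 without model 1), and mitochondrial Pck2 7.83, 9.26 and 9.7 CPM in the sham libraries and 80, 78.8 and 54.8 CPM in the model libraries (log2FC 2.99, SE 0.208, adjusted p 5.71e-05).

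Genes that make serine and nucleotides rose. Serine and one-carbon metabolism feeds nucleotide and glutathione synthesis, and 12 of 21 of its genes rose while 6 fell (median 2.02). Phgdh, the first enzyme of serine synthesis (ENSMUSG00000053398, chromosome 3, 98313170 to 98339990), measured 5.07, 5.32 and 4.12 CPM in the sham libraries and 226, 236 and 198 CPM in the model libraries. Within each group the libraries lay close together, and the groups were far apart (log2FC 5.51, SE 0.175, adjusted p 1.44e-05). Psat1, the next enzyme, measured 37.4, 5.83 and 3.1 CPM in the sham libraries and 230, 289 and 231 CPM in the model libraries, with sham 1 apart from the other colon samples (log2FC 4.02, SE 0.942, adjusted p 0.00804; 5.81 without sham 1). Cth, the cystathionase that turns serine-derived sulfur amino acids into cysteine, fell and measured 79.7, 169 and 182 CPM in the sham libraries and 2.02, 0.126 and 0.0936 CPM in the model libraries (log2FC -7.5, SE 1.08, adjusted p 0.000978; -10.22 without model 1). Of 32 nucleotide synthesis genes 24 rose and 3 fell (median 1.65; 2 fell without model 1 or model 3). Cad, the enzyme that starts pyrimidine synthesis, rose (log2FC 3.98, SE 0.219, adjusted p 3.03e-05), and Dpyd, which degrades pyrimidines, fell (log2FC -7.26, SE 0.954, adjusted p 0.000677; -9.61 without model 1 and -6.67 without model 2).

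Of 28 amino acid transporters 14 rose, 9 fell and 5 were not called (median 0.98). Slc7a5, which brings leucine and other large amino acids into dividing cells, rose from 5.52, 3.79 and 3.87 to 165, 190 and 115 CPM (log2FC 5.16, SE 0.28, adjusted p 2.96e-05). Slc6a14, a transporter of the colonocyte surface, measured 1674, 2030 and 2150 CPM in the sham libraries and 7.34, 0.209 and 0 CPM in the model libraries (adjusted p 0.00435). Its log2FC was -9.58, and -13.99 without model 1 and -8.97 without model 3. ATF4 is the factor that raises such genes when amino acids are short or the endoplasmic reticulum is stressed. The list of its targets also holds Atf4 itself and the kinase genes Eif2ak3 and Eif2ak4. Of its 17 tested members 10 rose and 3 fell (median 1.16). Atf4 and Eif2ak4 are among those that rose, so the targets alone make a smaller count. Trib3, a pseudokinase, measured 0.82, 1.31 and 0.76 CPM in the sham libraries and 34.9, 54.5 and 18.8 CPM in the model libraries (log2FC 5.22, SE 0.502, adjusted p 0.00019), and Chac1, which degrades glutathione, 0.149, 0.219 and 0.0634 CPM in the sham libraries and 18.6, 21.2 and 8.89 CPM in the model libraries (log2FC 6.79, SE 0.568, adjusted p 0.000112). Among tumours both genes were highest in model 2 and lowest in model 3. Atf3, a stress factor that ATF4 also raises, fell from 67, 66.4 and 72 to 7.05, 5.69 and 8 CPM (log2FC -3.31, SE 0.176, adjusted p 2.82e-05).

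The composite C/EBP-ATF motif TGATGCAA, to which ATF4 binds as a dimer, was counted in the 10 members of the ATF4 list that rose, Atf4 and Eif2ak4 included. It lay in 3 of their 13 windows (23.1%), against 0.895% of all windows. Chac1 is shown because it holds such a match (chr2:119350992-119351241, plus strand, GRCm38.p6, RefSeq), in capitals and read as the reverse complement, 193 bases before the start.
Chac1: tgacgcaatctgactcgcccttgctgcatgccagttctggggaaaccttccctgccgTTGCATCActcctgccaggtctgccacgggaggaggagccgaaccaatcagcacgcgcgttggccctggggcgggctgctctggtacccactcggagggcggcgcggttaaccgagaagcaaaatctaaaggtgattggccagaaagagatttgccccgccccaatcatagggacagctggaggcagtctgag
A window without these letters says nothing of the factor, and binding was not measured. The pairs of list and motif given were picked from a wider search. HNF1 and HNF4 motifs lay in none of 21 brush border and 38 epithelial regulator windows, but in only 0.00913% and 0.475% of all windows. The AP-1 motif lay in none of 14 windows of ERK list members that rose, against 7.81%. In 44 windows of xenobiotic genes that fell, CHR lay in 34.1% and HNF4 in 4.55%.

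Detoxifying enzymes fell. Of 44 phase I and II enzymes of xenobiotic metabolism, 40 fell and 3 rose (median -6.3). The median was -7.46 without model 1. Gstm3, a glutathione transferase with close paralogues, measured 12.3, 56.2 and 53.7 CPM in the sham libraries and 0, 0.0419 and 0.0468 CPM in the model libraries (adjusted p 0.000192), with 2 counts in the tumours together. Adh7, an alcohol dehydrogenase that oxidises retinol, rose from 0.298, 0.437 and 0.634 to 64.2, 69.1 and 50.9 CPM (log2FC 7.03, SE 0.3, adjusted p 1.88e-05), and Cyp1b1, a stromal cytochrome P450, rose (log2FC 4.33, SE 0.678, adjusted p 0.00141). Metal handling divided, with 9 of 18 higher and 8 lower, and 6 higher without sham 2, model 1 or model 3. Slc39a4, the zinc importer of gut, fell (log2FC -8.02, SE 0.883, adjusted p 0.000327; -8.76 without model 1), and Mt2, a zinc-binding metallothionein, rose from 2 counts in the colon libraries together to 4.05, 3.81 and 2.15 CPM (adjusted p 0.000306).

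Among host cells, most macrophage markers rose. Of 31 macrophage and monocyte genes, 25 rose and 3 fell (median 3.0). Ccr2, the receptor by which monocytes leave the bone marrow, measured 4.25, 2.84 and 4.12 CPM in the sham libraries and 54.5, 36.7 and 36.8 CPM in the model libraries (log2FC 3.51, SE 0.268, adjusted p 7.88e-05). Cd163, a haemoglobin scavenger receptor, measured 0.373, 0.365 and 0.887 CPM in the sham libraries and 8.53, 37.7 and 12 CPM in the model libraries, with model 2 the highest tumour (log2FC 5.12, SE 0.768, adjusted p 0.00118; 4.24 without model 2). Plac8, a marker of monocytes that gut epithelium also makes, fell from 1924, 1506 and 1415 to 75.6, 56.7 and 56.4 CPM (log2FC -4.68, SE 0.232, adjusted p 2.47e-05). Lyz2, the myeloid lysozyme, measured 798, 129 and 90.6 CPM in the sham libraries and 476, 412 and 648 CPM in the model libraries and was not called, with sham 1 the highest of all libraries. Without sham 1 it was called higher (log2FC 2.22). Of 14 neutrophil genes 12 rose and 2 fell, and their summed level overlapped, at 63.7, 99.3 and 100 CPM in the sham libraries and 132, 150 and 85.6 CPM in the model libraries. Ly6g alone made most of the sum in each sham library, so the overlap rests on that gene. The members that fell were Ly6g, the surface antigen by which mouse neutrophils are commonly defined, at 47.6, 92.7 and 92.8 CPM in the sham libraries and 0.0361, 0.126 and 0 CPM in the model libraries (log2FC -10.31, SE 0.621, adjusted p 3.81e-05; -11.46 without model 2), and Ltf, the granule protein lactoferrin, at 2.24, 0.875 and 1.33 CPM in the sham libraries and 0.253, 0.251 and 0.14 CPM in the model libraries (log2FC -2.73, SE 0.491, adjusted p 0.00257). Trem1, an activating receptor of neutrophils, measured 0.149, 0.0729 and 0.0634 CPM in the sham libraries and 3.94, 4.69 and 4.12 CPM in the model libraries (log2FC 5.41, SE 0.417, adjusted p 7.87e-05).

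Mast cells of connective tissue and of mucosa carry different proteases, and these moved apart. Cma1, a chymase of the connective tissue type, had no count in colon and measured 2.86, 1.84 and 3.65 CPM in tumours, at least 13.2-fold higher. Cpa3, the mast cell carboxypeptidase, measured 0.447, 0.219 and 0.19 CPM in the sham libraries and 2.71, 2.93 and 5.05 CPM in the model libraries (log2FC 3.63, SE 0.491, adjusted p 0.000766; chosen after its values were seen). Mcpt2, a chymase of mucosal mast cells, measured 5.59, 3.06 and 2.47 CPM in the sham libraries and 0.506, 0.377 and 0.0936 CPM in the model libraries (log2FC -3.45, SE 0.615, adjusted p 0.00248). Kit, the receptor that all mast cells need and that pacemaker cells of the gut also carry, was not called, at 6.19, 12.3 and 11.9 CPM in the sham libraries and 11.3, 11.9 and 8.75 CPM in the model libraries. Siglecf, a lectin of eosinophils, fell (log2FC -5.09, SE 0.688, adjusted p 0.000759; -6.4 without model 1), and 8 of 11 eosinophil markers were too low to test.

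Lymphocyte markers were lower or unclear. Of 24 B cell and germinal centre genes, 21 fell and none rose (median -4.81); without sham 1, the library high in these genes, 17 fell, 2 rose and the median was -2.59. Without model 1 the median was -5.99, and 9 fell without model 2 and 8 without model 3. Pou2af1, a B cell coactivator, measured 265, 17.6 and 4.63 CPM in the sham libraries and 1.92, 0.293 and 0.421 CPM in the model libraries. Its log2 fold change was -6.71 (adjusted p 0.0138), and the call was lost without model 2 or model 3, with no filter on low counts and by limma on log2(FPKM + 1) (-3.62 without sham 1 and -7.33 without sham 3 and -8.02 without model 1). Of 14 plasma cell genes, 13 fell (median -4.07; -2.77 without sham 1). Mzb1, a chaperone of antibody assembly, measured 71.1, 8.24 and 4.56 CPM in the sham libraries and 0.578, 0.209 and 0.0468 CPM in the model libraries (log2FC -6.55, SE 1.42, adjusted p 0.00571; -4.43 without sham 1 and -7.63 without model 1). Of 32 T cell genes 9 fell and 5 rose. These counts depended on single libraries: 9 fell and 12 rose without sham 1, 12 and 2 without sham 2, 14 and 2 without sham 3, 4 and 2 without model 1, 3 and 2 without model 2 and 3 and 3 without model 3. Tigit, an inhibitory receptor of activated T and NK cells, rose (log2FC 3.5, SE 0.74, adjusted p 0.00517; 4.77 without sham 1). Cd8a, a coreceptor of killer T cells, was not called, at 7.23, 12 and 13.8 CPM in the sham libraries and 10.7, 6.7 and 11 CPM in the model libraries.

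Granzymes, the killing proteases of lymphocytes, differed by member. Gzmg, a member of a group of near-identical genes on chromosome 14, had no count in any colon library and measured 67.4, 63.8 and 61.4 CPM in tumours, at least 304-fold higher, and Gzme at least 109-fold. Gzmd and Gzmf each had 1 count among the sham libraries and measured 64, 71.1 and 66.4 and 73.4, 64.7 and 56.9 CPM in tumours. Their reads may be shared between the copies, so the level of each is uncertain. Gzmb, the common granzyme of killer cells, was not called, at 7.61, 27.7 and 29.2 CPM in the sham libraries and 31.5, 30.3 and 26.1 CPM in the model libraries, and Gzma, another common member chosen after its values were seen, fell (log2FC -1.81, SE 0.459, adjusted p 0.0114), a call lost by limma on log2 FPKM. Tcrg-C1, a gamma-delta T cell receptor segment of intraepithelial lymphocytes, measured 3.5, 4.59 and 5.83 CPM in the sham libraries and 0.108, 0 and 0.0468 CPM in the model libraries (log2FC -6.26, SE 0.664, adjusted p 0.000278; -7.28 without model 1).

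Most chemokines rose. Of 29 chemokines 18 rose and 6 fell (median 2.78; 4 fell without model 2). Ccl7, which attracts monocytes, measured 0.671, 0.948 and 0.76 CPM in the sham libraries and 22.5, 38 and 49.3 CPM in the model libraries (log2FC 5.52, SE 0.389, adjusted p 6.08e-05). A member that fell was Ccl28, which brings antibody-making cells to the colon, measured 116, 101 and 98.9 CPM in the sham libraries and 3.69, 0.502 and 1.03 CPM in the model libraries (log2FC -5.89, SE 0.71, adjusted p 0.000471; -7.07 without model 1). Of 21 interleukins and related cytokines, 12 rose and 4 fell. Il18, an epithelial alarm cytokine, fell from 248, 214 and 198 to 2.64, 1.76 and 2.76 CPM (log2FC -6.52, SE 0.244, adjusted p 1.57e-05), and Lif, a cytokine of the interleukin 6 family, rose (log2FC 3.8, SE 0.382, adjusted p 0.000225). Il1rl1, the receptor for interleukin 33 on mast cells, regulatory T cells and other cells, measured 4.47, 1.97 and 2.34 CPM in the sham libraries and 287, 449 and 375 CPM in the model libraries (log2FC 6.98, SE 0.415, adjusted p 3.65e-05). Of 23 complement genes 15 rose and 2 fell (3 fell without sham 1 or sham 3), with C3ar1, the myeloid receptor for a complement fragment, at 1.42, 1.02 and 1.01 CPM in the sham libraries and 70.3, 70.3 and 87.2 CPM in the model libraries (log2FC 6.04, SE 0.221, adjusted p 1.53e-05).

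Interferon genes moved both ways. Of 40, 21 fell, 13 rose and 6 were not called (median -0.65). Without scaling 15 fell, 16 rose and the median was -0.05. Ifit1, which binds viral RNA, measured 641, 349 and 340 CPM in the sham libraries and 31.6, 39.8 and 28.7 CPM in the model libraries (log2FC -3.73, SE 0.32, adjusted p 0.000123). Ifitm3, which blocks viral entry, rose from 22.5, 23.3 and 25.2 to 323, 232 and 286 CPM (log2FC 3.57, SE 0.172, adjusted p 2.29e-05), and Gbp4, a guanylate-binding protein that answers to interferon gamma, rose (log2FC 3.78, SE 0.286, adjusted p 7.69e-05). For MHC class I presentation 7 of 21 fell and 6 rose (median -0.19), but without scaling 1 fell and 10 rose and the median was 0.41, and without sham 1 and model 1 11 fell. H2-K1, a classical class I heavy chain, measured 903, 950 and 884 CPM in the sham libraries and 551, 455 and 592 CPM in the model libraries (log2FC -0.78, SE 0.156, adjusted p 0.00403), and this call was lost without scaling and by limma on log2 FPKM. H2-D1, the other such chain, was not called, at 628, 1755 and 1778 CPM in the sham libraries and 1431, 1208 and 1413 CPM in the model libraries. Without sham 1 it was called lower (log2FC -0.40). H2-M3, a class I molecule that presents bacterial peptides, rose from 12.5, 6.78 and 5.51 to 38.8, 33.8 and 43.7 CPM (log2FC 2.23, SE 0.331, adjusted p 0.00112). Class I genes are close copies of each other, so their single values are uncertain.

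Vessel and stromal markers differed in direction from the muscle coat. Of 25 endothelial genes, 21 rose and none fell (median 2.19; 1 fell without sham 1), with a summed level of 105, 92.3 and 87.8 CPM in colon and 1635, 1469 and 1559 CPM in tumours. Much of the tumour sum was Aqp1, given above with the transport genes, and Cd34, found on vessels, fibroblasts and progenitors. Cd34 measured 2.31, 2.7 and 2.91 CPM in the sham libraries and 459, 440 and 516 CPM in the model libraries (log2FC 7.47, SE 0.191, adjusted p 1.41e-05). Sele, an endothelial selectin that captures leukocytes, measured 0, 0.219 and 0.127 CPM in the sham libraries and 201, 153 and 187 CPM in the model libraries (log2FC 10.52, SE 0.47, adjusted p 1.96e-05; 11.16 without sham 2). Pecam1, an adhesion molecule of all endothelium that was chosen after its values were seen, measured 29.2, 17.1 and 17.3 CPM in the sham libraries and 55.6, 51.5 and 51.6 CPM in the model libraries (log2FC 1.32, SE 0.239, adjusted p 0.00264), a far smaller rise. Fli1, an endothelial and blood cell ETS factor, was not called, at 32.4, 4.3 and 3.87 CPM in the sham libraries and 15.1, 13.6 and 13.1 CPM in the model libraries. Without sham 1 it was called higher (log2FC 1.76). Of 7 lymphatic genes 4 fell and 3 rose (1 or 2 rose without each library in turn), with Prox1, which sets lymphatic identity, at 2.54, 4.23 and 3.36 CPM in the sham libraries and 0.181, 0 and 0.0468 CPM in the model libraries (log2FC -5.28, SE 0.741, adjusted p 0.000895; -6.82 without model 1).

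Of 16 pericyte and smooth muscle genes 11 fell and 2 rose (median -4.59; 1 rose without sham 2, sham 3, model 1 or model 2). Cnn1, the calponin of smooth muscle, measured 7.23, 159 and 168 CPM in the sham libraries and 1.45, 0.377 and 0.14 CPM in the model libraries, so sham 1 stood far below the other colon samples and still above the tumours (log2FC -7.34, SE 1.42, adjusted p 0.00356; -8.65 without model 1). Chrm2, the muscarinic receptor of gut muscle, measured 2.76, 15.1 and 15.1 CPM in sham 1, 2 and 3 and had no count in tumours, at least 87.9-fold lower. Of 12 genes of enteric neurons, glia and pacemaker cells, 7 fell and 1 rose, and 11 fell without sham 1. Of 20 fibroblast genes 11 rose and 4 fell (median 1.86; 6 fell without sham 1). Pdpn, a mucin-like protein of fibroblasts and lymphatics, measured 2.01, 1.24 and 0.824 CPM in the sham libraries and 54.7, 75.9 and 61.6 CPM in the model libraries (log2FC 5.56, SE 0.353, adjusted p 4.27e-05), while Bmp4, a ligand of fibroblasts near the epithelium, measured 1.27, 4.74 and 4.88 CPM in the sham libraries and 0.253, 0.126 and 0.515 CPM in the model libraries (log2FC -3.6, SE 0.717, adjusted p 0.00397). Msln, the mesothelin of body cavity linings and of several carcinomas, rose from 12.5, 4.37 and 2.72 to 188, 244 and 174 CPM (log2FC 4.96, SE 0.602, adjusted p 0.000483; 5.83 without sham 1).

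The hour of sampling is not given in the labels, so the genes of the molecular clock were read too. Of 22 clock genes 12 fell and 6 rose. Without scaling 8 fell and 7 rose. Npas2, a partner of Bmal1, measured 19.5, 22.5 and 26.2 CPM in the sham libraries and 0.398, 0.0837 and 0 CPM in the model libraries (log2FC -6.99, SE 0.763, adjusted p 0.000317; -8.77 without model 1). Per2, a repressor whose level swings through the day, fell (log2FC -2.03, SE 0.216, adjusted p 0.000282), and Nfil3, a repressor that is also raised in leukocytes, rose (log2FC 2.51, SE 0.227, adjusted p 0.000146).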

How the data were processed

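Trizol-extracted RNA, 5 ug a sample, went into the VAHTS Universal V6 library kit, per the labels' protocols. The deposited gene counts are unnormalized, and the submitters' processing notes name mm9 as build and featureCounts 1.5.0-p3 as tool. They also deposited FPKM values, in which counts are divided by gene length and library total. Aligner, read length and strandedness are not stated in the labels, so overlapping and antisense genes cannot be told apart. For 96.1% of 16935 genes the length implied by both tables lay within 1% of GENCODE M21 exons on GRCm38, so coordinates printed are GRCm38.

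The 3 sham and 3 model libraries were tested in R 4.3.3 by edgeR 4.0.16, with TMM scaling (factors 0.79 to 0.84 in sham, 1.18 to 1.30 in model), filterByExpr, a robust quasi-likelihood fit and Benjamini-Hochberg adjustment over 18228 features, at a threshold of 0.05. CPM values are TMM-scaled. A count of 0 was set against a floor of 3 counts per library, or 0.108 to 0.224 CPM, which covers counting error only. The 6 columns of the third group in both tables were not used.

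The members and the 87 gene lists were chosen with earlier results of these data known. Within a list, up to 4 called members per direction were named, those with the largest absolute log2 fold change, a mean of 1 CPM or more where they were higher, and groups that did not overlap, with up to 2 uncalled members of highest level. The 12 genes with the largest gain and loss in CPM, and the 15 that vary most within each group, were added. A few genes that the rule names are not reported here. Fits were tested on simulated counts. Alternatives were DESeq2 1.42.0, limma 3.58.1 on log2(FPKM + 1) and log2(FPKM + 0.1), other scaling and filters, a fold threshold, a replicate block and each library left out. Leaving out sham 1 and model 1 together was chosen after seeing the data.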

Additional observations from a re-analysis of the deposited data

How the results depend on the processing

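The count of calls lay between 10563, when a 2-fold change was also required, and 15339, without sham 1. Leaving out 1 library at a time gave 11677 to 15339 calls, 6035 to 8253 higher and 5558 to 7086 lower. DESeq2 made 15304 calls, no filter on low counts 14894 and upper-quartile scaling 12775. The split of calls depended on scaling: 52.8% were higher with TMM, 54.1% with upper-quartile factors, 67.3% with none and 68.3% by limma on log2(FPKM + 1), and without scaling 87.5% of the calls were kept in direction. The list medians of the Ras core, glycolysis, MHC class I, axon guidance, fatty acid-binding protein and arginine genes changed sign without scaling. Genes named only as examples or as uncalled members of a list were not followed through the settings. Of 217 called genes that were followed, 210 were called under every setting. The 7 others were Lypd8, Slc26a3 and Hnf4a (lost without sham 1), Pou2af1 and mt-Nd3 (lost without model 2 or model 3 and by limma on log2(FPKM + 1)), and Gzma and H2-K1 (lost by limma on FPKM at both pseudocounts). The calls of Hnf4a and Pou2af1 were also lost with no filter on low counts, and those of H2-K1 and mt-Nd3 without scaling. Of 14 genes not called that were followed in the same way, Fli1, Lyz2 and Sox9 were called higher and H2-D1, Itgav and Tjp1 lower without sham 1. Met, Pkm, Sox9, Vegfa and Yap1 were called higher without scaling and by limma on log2 FPKM, as was Gzmb at a pseudocount of 1, so these calls depend on sham 1 or on the scaling. Itgav, not called in the main fit and called lower without sham 1, changed sign and was called higher in other settings. Its log2FC was 0.40 without scaling, 0.38 by limma on log2(FPKM + 1) and 0.39 on log2(FPKM + 0.1). Deviations of same-numbered sham and model libraries correlated at -0.055, 0.006 and -0.103 over 18228 genes. These values show no pairing by number, but with 3 libraries a group they cannot exclude it. With the replicate number as a block, 11774 calls were made, 6275 higher and 5499 lower, and the block ended no call of a gene that was followed. With 3 libraries a group, an exact permutation test of a single gene could not give p under 0.1, so the calls rest on the spread shared across genes, and levels under about 0.2 CPM are not told apart from 0 at this depth.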
